A study of Mus musculus with 21 samples.

Results

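The response of the C57BL/6 mouse lung 3 weeks after a dose of bleomycin was described from 4 of the 21 arrays of the series: 2 arrays of C57BL/6 lung at 3 weeks and 2 arrays of C57BL/6 control lung, chosen by their titles. Bleomycin was released from an osmotic minipump, and RNA of the whole right lung was extracted and hybridised to mouse oligonucleotide arrays with 22690 probe sets. Each array held the pooled RNA of several mice of 1 sex. At 3 weeks the males had received 100 mg/kg and the females 125 mg/kg, so sex and dose go together and cannot be told apart. The control group also held 1 male and 1 female pool; whether the controls carried a pump is not stated in the labels. The other 17 arrays, which entered the fit to estimate the spread between arrays, were of C57BL/6 lung at 6 weeks and of moribund C57BL/6 mice, and of A/J and C3H/HeJ lung with and without bleomycin. At 3 weeks the C3H/HeJ pools had the doses of the C57BL/6 pools, while A/J had 2 male pools, at 80 and 100 mg/kg, and 2 female pools, at 100 and 125 mg/kg. With pools, the spread between 2 arrays covers differences between pools and in handling, not between single mice.

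Bleomycin is a drug that breaks DNA, and in rodents it is the standard way to make the lung scar. Airway and alveolar cells are damaged, p53 targets and repair genes are switched on in hit cells, monocytes enter and become macrophages, and fibroblasts lay down fibronectin, tenascin and collagen that stiffen the alveolar wall. C57BL/6 is known as a strain that scars readily after this drug, and C3H/HeJ as a resistant one.

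Values are signals, the array brightness of a gene's brightest probe set after quantile normalisation, given with the male pool before the female pool throughout. A change is the 3 week mean minus the control mean on the scale of log2(signal + 16), with its standard error from the limma fit, and p-values were adjusted over all 9079 genes that could be tested. Median brightness as deposited was 109 and 111 in the 2 controls and 85.6 and 99.9 in the 2 arrays at 3 weeks. The ratio of 3′ to 5′ signal of Gapdh, which rises with RNA breakdown, was 0.853 and 0.928 in the controls and 1.0 and 1.06 at 3 weeks, within a range of 0.770 to 2.08 over the 21 arrays. It moved with the groups, and its part in the results was not tested except through the fit that holds it as a covariate. Across genes, the 2 arrays at 3 weeks correlated at 0.975, the 2 controls at 0.973, and arrays of different groups at 0.914 to 0.935. Xist, the transcript of the inactive X chromosome of females, read 132 and 1727 in the controls and 83.1 and 902 at 3 weeks, so each pool's label of sex was met.

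The markers of lung cell types were present. Summed over its tested markers, the type 2 alveolar cell signal was 22309.6 and 23687 in the controls and 17011 and 17529 at 3 weeks, the club cell signal 20808 and 20312 in the controls and 15621 and 16152 at 3 weeks and the macrophage signal 2899 and 2866 in the controls and 4934 and 4959 at 3 weeks. The liver markers Apoa1 and Ttr were too dim to test. Heart markers summed to 2364 and 2377 in the controls and 894 and 1213 at 3 weeks, red cell markers to 1944 and 2041 in the controls and 716 and 947 at 3 weeks, and skeletal muscle markers to 153 and 710.3 in the controls and 111 and 212 at 3 weeks, where the female control stood above the other 3 arrays. In a whole lung, fewer cells of a type and less RNA per cell cannot be told apart.

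Of the 9079 genes, 1186 (13.1%) passed an adjusted p under 0.05. Of these 644 (7.09%) were higher and 542 (5.97%) were lower at 3 weeks. The median change was +0.85 for the higher genes and −0.78 for the lower ones. Large changes were mostly rises: 230 genes rose and 137 fell more than 2-fold, 35 rose and 5 fell more than 4-fold, and 6 rose and none fell more than 8-fold. On the intensities as deposited, where the dimmer 3 week arrays pull the median change of all genes from +0.01 to −0.16, the split turned to 162 higher and 225 lower. With every array scaled to 1 median it was 672 higher and 335 lower. Leaving out 1 of the 4 arrays gave 427 calls without the male 3 week array, 831 without the female 3 week array, 553 without the male control and 627 without the female control. In each of those fits 1 group has a lone array that is assumed to vary like the other groups. Beside the gene groups below, the calls that remained are given in that order of arrays left out, and then for the intensities as deposited. The counts in each group stand against the 7.09% higher and 5.97% lower over all genes. The lists and their members were chosen with earlier results of these data known. A share above those over all genes may follow in part from that choice.

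**Figure D1:**
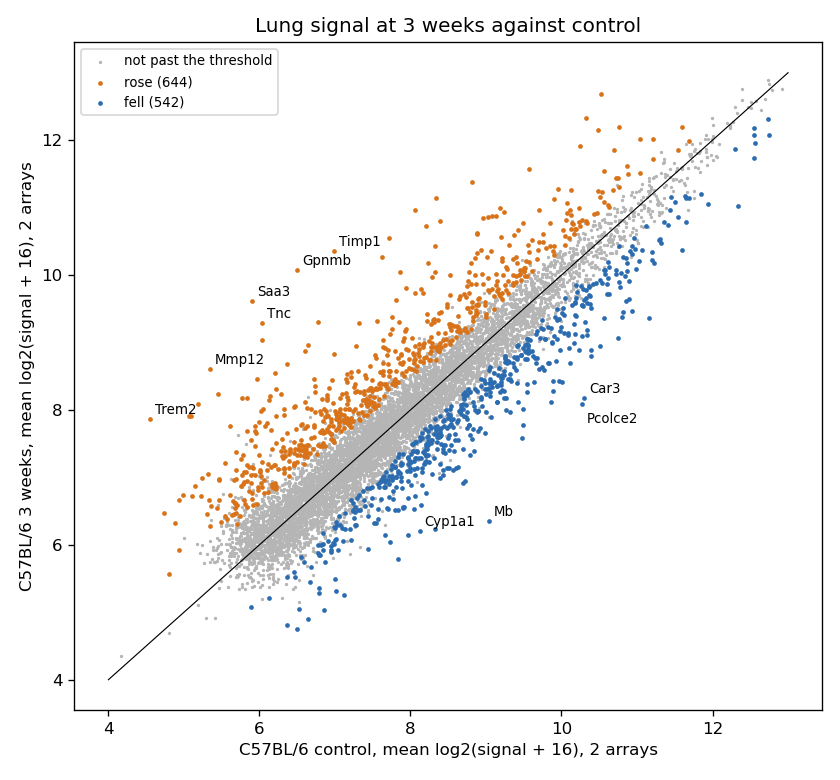
Mean signal of the 9079 tested genes in the 2 C57BL/6 control arrays (x axis) and the 2 arrays at 3 weeks (y axis), both as log2(signal + 16); orange points are the 644 genes that rose, blue points the 542 that fell, grey points the rest. The rises reach further from the diagonal than the falls, and Saa3, Gpnmb, Timp1, Trem2, Mmp12 and Tnc lie farthest above it.

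The 6 largest rises are given first. Saa3, an acute phase protein made in the tissue itself, read 32.6 and 57.3 in the controls and 961 and 612 at 3 weeks, a change of +3.71 ± 0.32 (SE, adjusted p = 9.0e-07). Gpnmb, a glycoprotein of lipid-laden macrophages, read 70.8 and 78.2 in the controls and 1143 and 998 at 3 weeks, a change of +3.58 ± 0.19 (SE, adjusted p = 3.0e-09). Timp1, the inhibitor of matrix metalloproteinases, read 123 and 100.2 in the controls and 1674 and 997 at 3 weeks, a change of +3.36 ± 0.26 (SE, adjusted p = 3.5e-07). In all 3 genes both treated pools lay far above both controls. Trem2, a lipid-sensing receptor of macrophages, read 8.2 and 6.8 in the controls and 198 and 238 at 3 weeks, a change of +3.31 ± 0.29 (SE, adjusted p = 9.7e-07). Mmp12, the macrophage elastase, read 15.1 and 37.1 in the controls and 280.4 and 502 at 3 weeks, a change of +3.27 ± 0.48 (SE, adjusted p = 2.1e-04). Tnc, or tenascin C, a matrix protein of wounds, read 42.7 and 56.9 in the controls and 701 and 531 at 3 weeks, a change of +3.26 ± 0.35 (SE, adjusted p = 1.1e-05). These were the 6 genes that rose more than 8-fold.

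**Figure D2:**
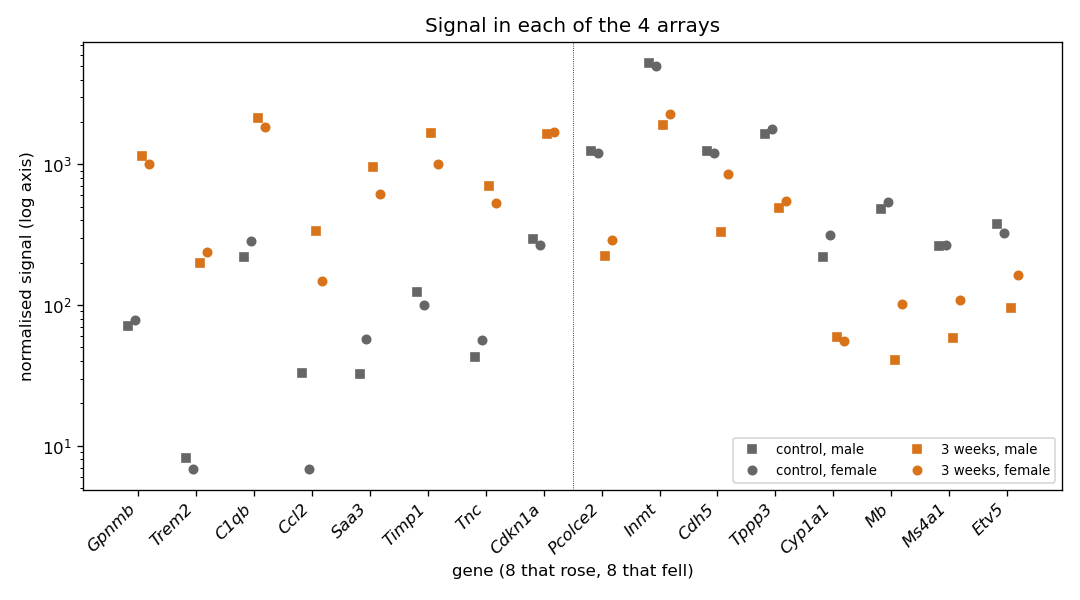
Signal of 8 rising and 8 falling genes in each of the 4 arrays (log axis): squares are male and circles female pools, grey for control and orange for 3 weeks. In each gene shown the 2 arrays at 3 weeks lie on the same side of both controls.

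Macrophages clear debris and surfactant in the alveoli, and after injury recruited monocytes add to them. Of 34 tested macrophage markers, 22 rose and 2 fell, with a median change of +0.97. Ms4a6d read 46.3 and 53 in the controls and 592 and 434 at 3 weeks, a change of +3.0 ± 0.26 (SE, adjusted p = 9.7e-07). The receptors for antibody rose together: Fcgr3 read 88.3 and 99.8 in the controls and 724 and 528 at 3 weeks, and Fcgr1 read 44.8 and 65.5 in the controls and 313 and 251 at 3 weeks. Fcer1g, the signalling chain that these receptors share, changed by +1.74. Adgre1, which encodes the F4/80 antigen, read 226 and 219.5 in the controls and 536 and 472 at 3 weeks, a change of +1.12 ± 0.18 (SE, adjusted p = 4.5e-04). Ccr2, the receptor that brings monocytes out of the blood, read 97.5 and 114 in the controls and 288 and 326 at 3 weeks, a change of +1.41 ± 0.24 (SE, adjusted p = 8.4e-04). The 2 list members that fell were Krt79 and Car4, of which Car4, carbonic anhydrase 4, is also made by capillary endothelium. Krt79 read 220.1 and 252 in the controls and 50 and 60.7 at 3 weeks, a change of −1.82 ± 0.23 (SE, adjusted p = 6.1e-05). Marco, a scavenger receptor of alveolar macrophages, read 32.4 and 41.5 in the controls and 46.4 and 55 at 3 weeks and did not pass the test (adjusted p = 0.42). Siglec1 changed by +1.1 ± 0.53 and Itgax by +0.66 ± 0.34, neither past the threshold. The 24 macrophage calls came to 17, 22, 21 and 18 and to 15.

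Macrophages take up and store lipid from dead cells and surfactant. Of 18 genes of this handling 11 rose and 2 fell, with a median change of +0.76. Msr1, a scavenger receptor, read 14.1 and 23 in the controls and 259.5 and 195 at 3 weeks, a change of +2.81 ± 0.31 (SE, adjusted p = 1.5e-05). Apoe, the lipid carrier that cells secrete, read 1209 and 1318 in the controls and 5431 and 4865 at 3 weeks, a change of +2.01 ± 0.20 (SE, adjusted p = 6.0e-06). Both were several-fold higher in either treated pool than in either control. Pla2g7, which breaks down oxidised phospholipids, read 40.6 and 36.7 in the controls and 308 and 244 at 3 weeks, a change of +2.41 ± 0.34 (SE, adjusted p = 1.4e-04). Ch25h, which makes 25-hydroxycholesterol, read 134 and 90.4 in the controls and 473 and 405 at 3 weeks, a change of +1.84 ± 0.27 (SE, adjusted p = 1.8e-04). The fatty acid carrier Fabp4 and the fatty acid receptor Cd36, both of which capillary endothelium and fat also make, fell by 1.06 and 0.57. The smallest fall among the 3 Fabp4 probe sets was −0.10. The 13 lipid-handling calls came to 9, 11, 11 and 12 and to 9. Cd36 (−0.55) missed the threshold without the male 3 week array, and Fabp4 (−0.90, −0.78) without the male 3 week or female control array.

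Lysosomal genes shifted upward as a group, with 19 of 28 rising, none falling and a median of +0.75. Lgmn, the protease legumain, read 511 and 496 in the controls and 2136 and 1584 at 3 weeks, a change of +1.84 ± 0.13 (SE, adjusted p = 2.6e-07). Cd68, a lysosomal membrane protein of macrophages, read 294 and 241 in the controls and 886 and 861 at 3 weeks, a change of +1.66 ± 0.16 (SE, adjusted p = 5.0e-06). Among the cathepsins, the acid proteases of the lysosome, Ctss read 1204 and 1192 in the controls and 3844 and 3869.9 at 3 weeks and Ctsd read 1557 and 1906 in the controls and 4320.5 and 5031 at 3 weeks. Ctsk, the cathepsin that cuts collagen, changed by +1.07 ± 0.22. The 19 lysosomal calls came to 15, 15, 13 and 15 and to 7. Ctsk (+0.86) missed the threshold without the female control array.

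Complement is the set of plasma and tissue proteins that tag debris for uptake. Of 18 tested members 8 rose and none fell. The 3 chains of C1q, which macrophages make, were the leading ones. C1qb read 219.7 and 286 in the controls and 2131 and 1839 at 3 weeks, C1qa read 388 and 483 in the controls and 2752 and 2556 at 3 weeks, and C1qc read 270.3 and 349.8 in the controls and 2139.6 and 2333 at 3 weeks. All 3 chains were several-fold above both controls in both treated pools, with changes of +2.9, +2.57 and +2.8. C3ar1, the receptor for the C3a fragment, read 84.6 and 77.3 in the controls and 482 and 423 at 3 weeks, a change of +2.27 ± 0.19 (SE, adjusted p = 9.0e-07). Cfb, factor B of the alternative pathway, read 87.4 and 91.9 in the controls and 329 and 339.9 at 3 weeks, a change of +1.73 ± 0.20 (SE, adjusted p = 2.0e-05). The inhibitor Serping1 changed by +0.41, while Cd55, another inhibitor, changed by −0.40 and did not pass. The 8 complement calls came to 6, 6, 7 and 5 and to 5. Serping1 (+0.41, +0.42, +0.33, +0.50) missed the threshold in each of the 4 fits.

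Chemokines draw leukocytes into the tissue through receptors on them. Of 13 CC chemokines and receptors 7 rose and none fell. Ccl2, the ligand of Ccr2, read 32.9 and 6.8 in the controls and 334 and 148 at 3 weeks, a change of +2.84 ± 0.43 (SE, adjusted p = 3.0e-04). Ccl9 read 163 and 200.1 in the controls and 1176 and 1246 at 3 weeks, a change of +2.64 ± 0.14 (SE, adjusted p = 3.0e-09). Its receptor Ccr1 read 48.9 and 44.3 in the controls and 390.0 and 292 at 3 weeks, a change of +2.5 ± 0.21 (SE, adjusted p = 9.0e-07). Ccl8 read 211 and 224 in the controls and 1247 and 865 at 3 weeks and Ccl6 read 944 and 933 in the controls and 2207 and 2219.9 at 3 weeks. Ccl4, which draws T cells and monocytes, changed by +0.25 ± 0.22 and did not pass. The 7 CC family calls came to 7, 7, 7 and 7 and to 6. In the CXC family 3 of 16 rose and 1 fell: Cxcl10, Cxcl16 and the scavenging receptor Ackr3 rose, and the platelet chemokine Ppbp fell. Ppbp read 1225 and 713 in the controls and 348 and 313 at 3 weeks, a change of −1.46 ± 0.33 (SE, adjusted p = 0.0067). The 4 CXC family calls came to 3, 4, 3 and 4 and to 3. Ppbp (−1.36, −1.22) missed the threshold without the male 3 week or male control array.

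Cytokines act through receptor chains that several of them share. Of 26 tested interleukin and TNF family genes 10 rose and 1 fell. Csf2rb2, a beta chain of the interleukin 3 receptor, read 67 and 76.9 in the controls and 229 and 269 at 3 weeks, a change of +1.59 ± 0.18 (SE, adjusted p = 1.8e-05). Il4ra, the chain that interleukins 4 and 13 share, read 164 and 206 in the controls and 432 and 367 at 3 weeks, a change of +1.05 ± 0.20 (SE, adjusted p = 0.0018). A dimmer probe set of Il4ra changed by −0.12, and the mean of its 3 probe sets, at +0.63, did not pass. The TNF receptors Tnfrsf1a and Tnfrsf1b changed by +0.67 and +0.98. Among the ligands, Il1b read 193 and 152 in the controls and 280.5 and 332 at 3 weeks, a change of +0.78 ± 0.19 (SE, adjusted p = 0.013), and its soluble antagonist Il1rn read 62.8 and 75.6 in the controls and 136 and 178 at 3 weeks, a change of +1.01 ± 0.24 (SE, adjusted p = 0.0087). The death ligand Tnfsf10 fell, reading 131 and 87 in the controls and 37.3 and 50.8 at 3 weeks. The 11 interleukin and TNF family calls came to 6, 9, 6 and 9 and to 5. Of 12 genes of alternative macrophage activation 5 rose and none fell, and the list's median was +0.17, or −0.01 on the intensities as deposited. Retnla, a secreted product of interleukin 4 signalling, read 948 and 2238 in the controls and 6509.9 and 6601 at 3 weeks, a change of +2.16 ± 0.23 (SE, adjusted p = 9.1e-06). Clec10a, a lectin of such macrophages, changed by +0.88, and Stat6, the factor that carries the signal, by −0.27 without passing. The 5 alternative activation calls came to 3, 4, 3 and 4 and to 2. Il4ra (+0.81) missed the threshold without the male 3 week array, Tnfsf10 (−0.86, −0.76) without the male 3 week or male control array, Il1rn (+0.81, +0.88) without the female 3 week or male control array, Il1b (+0.63, +0.63) without the female 3 week or female control array, Tnfrsf1a (+0.59, +0.70, +0.65) without the male 3 week, male control or female control array, and Clec10a (+0.84, +0.92, +0.87, +0.89) in each of the 4 fits.

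Neutrophils are the first leukocytes to enter a wound. Of their genes and acute phase genes 11 of 21 rose and none fell. Lcn2, lipocalin 2, read 534 and 598 in the controls and 1964 and 2085 at 3 weeks, a change of +1.81 ± 0.13 (SE, adjusted p = 2.6e-07). S100a8 and S100a9, the 2 chains of the neutrophil protein calprotectin, read 489.7 and 706 in the controls and 1949 and 1934 at 3 weeks, and 389 and 572 in the controls and 1248 and 1364 at 3 weeks. In both genes the female control was above the male control and still below both treated pools. Lrg1, a secreted glycoprotein of acute inflammation, read 382 and 769.8 in the controls and 1731 and 1989.5 at 3 weeks, a change of +1.74 ± 0.23 (SE, adjusted p = 7.3e-05). The granule genes Mpo and Camp changed by +0.37 ± 0.19 and +0.58 ± 0.45 and did not pass. The 11 neutrophil and acute phase calls came to 6, 9, 7 and 9 and to 6. S100a9 (+1.5, +1.37, +1.14) missed the threshold without the male 3 week, female 3 week or male control array.

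Interferons act through a receptor and STAT factors on target genes, many of which carry a short DNA motif, the interferon-stimulated response element, before their start. Of 36 interferon-stimulated genes 13 rose and 1 fell, with a median of +0.44. The motif was searched as GAAANNGAAA on both strands in the 250 bases before each RefSeq start (build GRCm38.p6). It was present in 936 of 27025 genes (3.46%) with a promoter in the table, in 3.34% of the tested genes, in 28 of 508 that rose (5.51%) and in 2.85% of those that fell. Among the listed interferon genes it was present in 6 of 9 that rose and 8 of 20 that did not rise. A match is a run of letters and not a shown binding site. The 5 promoters below are shown because these genes rose and hold the motif; it stands in capitals, where neighbouring matches overlap as 1 run, and each sequence reads 5′ to 3′ in the gene's direction, ending at the base before the start.
Ifit1 (chr19:34640639-34640888, plus strand): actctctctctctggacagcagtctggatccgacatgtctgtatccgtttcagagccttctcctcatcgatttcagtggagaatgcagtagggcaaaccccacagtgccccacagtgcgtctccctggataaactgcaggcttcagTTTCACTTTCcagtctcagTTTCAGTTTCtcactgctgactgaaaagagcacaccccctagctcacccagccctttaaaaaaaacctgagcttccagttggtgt
Ifit3 (chr19:34583279-34583528, plus strand): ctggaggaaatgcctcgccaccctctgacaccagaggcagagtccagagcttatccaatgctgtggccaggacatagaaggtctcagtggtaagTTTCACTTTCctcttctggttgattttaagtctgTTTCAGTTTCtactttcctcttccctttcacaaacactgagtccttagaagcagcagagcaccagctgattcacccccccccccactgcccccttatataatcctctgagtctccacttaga
Cxcl10 (chr5:92348890-92349139, minus strand): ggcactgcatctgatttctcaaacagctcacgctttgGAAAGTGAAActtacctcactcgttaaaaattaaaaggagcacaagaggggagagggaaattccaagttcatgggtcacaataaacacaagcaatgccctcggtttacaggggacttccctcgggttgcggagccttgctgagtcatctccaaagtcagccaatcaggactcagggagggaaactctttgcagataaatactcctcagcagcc
Bst2 (chr8:71537473-71537722, minus strand): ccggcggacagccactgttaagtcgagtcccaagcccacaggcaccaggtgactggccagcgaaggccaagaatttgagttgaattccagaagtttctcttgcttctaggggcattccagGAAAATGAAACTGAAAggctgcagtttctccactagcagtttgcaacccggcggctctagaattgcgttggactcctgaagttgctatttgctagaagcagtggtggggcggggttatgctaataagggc
Oas1a (chr5:120907526-120907775, minus strand): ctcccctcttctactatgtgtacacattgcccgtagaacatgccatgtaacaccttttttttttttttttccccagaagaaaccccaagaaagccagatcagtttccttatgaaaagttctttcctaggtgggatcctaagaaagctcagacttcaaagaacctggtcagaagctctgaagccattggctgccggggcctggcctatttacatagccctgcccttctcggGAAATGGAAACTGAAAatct
Cxcl10, a chemokine that interferon induces, read 18.5 and 22.6 in the controls and 262 and 251 at 3 weeks, a change of +2.9 ± 0.32 (SE, adjusted p = 1.1e-05). Irf7, the factor that amplifies the interferon response, read 119.9 and 172 in the controls and 534 and 699 at 3 weeks, a change of +1.97 ± 0.22 (SE, adjusted p = 1.2e-05). Ifit1, which binds foreign RNA, and its partner Ifit3 read 190.3 and 212 in the controls and 485 and 668 at 3 weeks, and 351 and 258 in the controls and 589 and 692 at 3 weeks. Bst2, tetherin, which holds budding virus at the cell surface, read 98.3 and 109 in the controls and 245 and 304 at 3 weeks, a change of +1.27 ± 0.23 (SE, adjusted p = 0.0013). Oas1a, a sensor of double-stranded RNA, read 212 and 248 in the controls and 543 and 598 at 3 weeks, a change of +1.26 ± 0.19 (SE, adjusted p = 3.8e-04). Isg20 was the member that fell, reading 597 and 548 in the controls and 246 and 398 at 3 weeks. Cxcl9, a target of interferon gamma, changed by +1.67 ± 0.58 (adjusted p = 0.068), and Irf1 by −0.38 ± 0.16 (adjusted p = 0.13). The 14 interferon calls came to 11, 10, 10 and 9 and to 7. Ifit3 (+0.83) missed the threshold without the female control array, and Isg20 (−0.46, −0.78, −0.90) without the male 3 week, male control or female control array.

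Provisional matrix is the first, loose matrix of a wound. Of 21 genes of provisional matrix 11 rose and none fell, with a median of +0.69. Fn1, or fibronectin, read 1363 and 1463 in the controls and 4865 and 4236 at 3 weeks, a change of +1.67 ± 0.18 (SE, adjusted p = 9.1e-06). Tgfbi, a matrix protein induced by TGF-beta, read 476 and 434 in the controls and 1762 and 1367 at 3 weeks, a change of +1.74 ± 0.15 (SE, adjusted p = 9.7e-07). On these probe sets both genes were bright on every array and about 3-fold higher at 3 weeks. A dimmer probe set of Fn1 changed by +0.76, and the 4 probe sets of Tgfbi ran from +0.89 to +1.93. Vcan, the proteoglycan versican, read 39.2 and 53.7 in the controls and 199.6 and 173 at 3 weeks, a change of +1.7 ± 0.27 (SE, adjusted p = 4.4e-04). Thbs1, thrombospondin 1, read 535 and 347 in the controls and 1202 and 1084 at 3 weeks, a change of +1.37 ± 0.27 (SE, adjusted p = 0.0027). Ccn2 and Ccn4, secreted proteins that modulate growth factors, rose by 1.33 and 1.56. The 11 provisional matrix calls came to 7, 10, 8 and 8 and to 7. Ccn4 (+1.26) missed the threshold without the male 3 week array, and Thbs1 (+1.03) without the female control array.

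Collagens form the lasting scar. Of 14 collagens of types I, III, V, VI and their relatives 7 rose and none fell, with a median of +0.63. Col1a1 read 671 and 743 in the controls and 1754 and 1728 at 3 weeks, a change of +1.28 ± 0.23 (SE, adjusted p = 0.0013). Col1a2 read 1844 and 1889 in the controls and 2875 and 2875 at 3 weeks, a change of +0.62 ± 0.11 (SE, adjusted p = 0.0014), and its dimmer probe set changed by +1.9. Col5a2, a chain of the collagen that sets fibril width, read 414 and 563 in the controls and 1973 and 1684 at 3 weeks, a change of +1.88 ± 0.18 (SE, adjusted p = 2.6e-06). Col3a1, the main type III collagen, read 2152 and 2996 in the controls and 3443 and 3792 at 3 weeks, a change of +0.51 ± 0.18 (SE, adjusted p = 0.076), and did not pass on this probe set. Its dimmer probe set changed by +1.57, and the mean of both, at +1.04, passed (adjusted p = 8.9e-04). The 7 calls of these collagens came to 4, 7, 4 and 6 and to 2. Among the enzymes and chaperones that mature collagen, 5 of 17 rose and 1 fell. Lox, the crosslinking lysyl oxidase, read 248 and 369.6 in the controls and 1516 and 1218 at 3 weeks, a change of +2.11 ± 0.21 (SE, adjusted p = 6.0e-06). Pcolce2, an enhancer of collagen cleavage, was the one that fell, reading 1246 and 1194 in the controls and 224 and 290.5 at 3 weeks, a change of −2.19 ± 0.18 (SE, adjusted p = 6.0e-07). The hydroxylases P4ha1 and Plod2 changed by −0.36 and −0.47 without passing. The 6 collagen processing calls came to 2, 3, 3 and 4 and to 2.

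The elastic fibre and proteoglycan genes moved both ways, 4 rising and 5 falling of 19. Eln, elastin, read 485 and 1131 in the controls and 3250.3 and 2850.1 at 3 weeks, a change of +2.01 ± 0.29 (SE, adjusted p = 2.0e-04). The female control stood above the male control, and both lay below both treated pools. Ltbp2, a microfibril protein, read 227 and 231 in the controls and 929.8 and 839 at 3 weeks, a change of +1.88 ± 0.18 (SE, adjusted p = 3.8e-06). In contrast Dcn, the small proteoglycan decorin, read 1254 and 1116 in the controls and 524 and 404 at 3 weeks, a change of −1.33 ± 0.21 (SE, adjusted p = 4.8e-04). Ogn, a related proteoglycan, read 1921 and 1973 in the controls and 589 and 819 at 3 weeks, and Ltbp4, which stores TGF-beta and helps elastic fibres form, read 1573 and 1313 in the controls and 404 and 562 at 3 weeks. The 9 elastic fibre and proteoglycan calls came to 5, 8, 5 and 5 and to 5. In the basement membrane 3 of 18 genes rose and none fell, namely Col4a1, Col4a2 and Col18a1, by 0.47, 0.77 and 0.84. The 3 basement membrane calls came to 1, 1, 1 and 1 and to 0. Col4a1 (+0.43, +0.51, +0.50, +0.45) and Col18a1 (+0.74, +0.94, +0.85, +0.83) missed the threshold in each of the 4 fits.

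Of 19 metalloproteinase genes 9 rose and none fell. Besides Mmp12 and Timp1, the membrane protease Mmp14 read 182 and 237 in the controls and 801 and 752 at 3 weeks, a change of +1.82 ± 0.19 (SE, adjusted p = 9.1e-06). Mmp2, the gelatinase that Mmp14 activates, read 454 and 552 in the controls and 1134 and 1318 at 3 weeks, a change of +1.26 ± 0.16 (SE, adjusted p = 6.5e-05). The inhibitors did not move alike: Timp3, which is anchored in the matrix, read 2728 and 2363 in the controls and 2013 and 1852 at 3 weeks and changed by −0.39 (adjusted p = 0.19). The 9 metalloproteinase calls came to 5, 7, 7 and 5 and to 5. Of 19 clotting, fibrinolysis and serpin genes 9 rose and 1 fell. Serpina3n, a serine protease inhibitor of the acute phase, read 214 and 175 in the controls and 1839 and 1205 at 3 weeks, a change of +2.84 ± 0.27 (SE, adjusted p = 3.7e-06). F13a1, the enzyme that crosslinks fibrin, read 247 and 161 in the controls and 946 and 444 at 3 weeks, a change of +1.63 ± 0.39 (SE, adjusted p = 0.0094). Thbd, thrombomodulin, which restrains clotting on endothelium, was the one that fell, reading 1837 and 1624 in the controls and 770.2 and 1143 at 3 weeks. The 10 clotting and serpin calls came to 4, 7, 6 and 5 and to 3. F13a1 (+1.07, +1.34) missed the threshold without the male 3 week or female control array, and Thbd (−0.57, −0.76, −0.98) without the male 3 week, male control or female control array.

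TGF-beta and its relatives drive matrix genes in fibroblasts, and BMPs often oppose them. Of 41 genes of these pathways 4 rose (9.8%) and 7 fell (17.1%), against 7.09% and 5.97% of all genes. Among ligands, Tgfb1 read 429 and 364 in the controls and 579 and 571 at 3 weeks, a change of +0.52 ± 0.25 (SE, adjusted p = 0.20), and did not pass. Bmp6 read 672 and 576 in the controls and 217 and 254 at 3 weeks, a change of −1.35 ± 0.17 (SE, adjusted p = 4.8e-05), and Bmp7 read 45.6 and 62.8 in the controls and 29.1 and 14.5 at 3 weeks, a change of −0.91 ± 0.26 (SE, adjusted p = 0.028). Among secreted inhibitors, Fst, which traps activin, read 36.7 and 45.6 in the controls and 364 and 204 at 3 weeks, a change of +2.34 ± 0.33 (SE, adjusted p = 1.5e-04), and Grem1, which traps BMPs, read 32.5 and 37.9 in the controls and 87.7 and 77.8 at 3 weeks. Fst and Grem1 thus rose and Bmp6 and Bmp7 fell, while 30 of the 41 genes did not pass. The median change of the list was −0.03. Among receptors, Acvrl1 and Eng, the BMP receptor pair of endothelium, fell by 1.13 and 0.76. A dimmer probe set of Eng changed by −0.34. The inhibitory Smad6, a BMP target, fell by 0.81. The 11 TGF-beta and BMP calls came to 7, 10, 8 and 9 and to 9. Eng (−0.50) missed the threshold without the male 3 week array, Grem1 (+0.85, +0.88) and Smad6 (−0.68, −0.57) without the male 3 week or male control array, Bmp7 (−0.64, −0.67) without the female 3 week or female control array, and Acvrl1 (−0.89, −1.12, −1.15) without the male 3 week, male control or female control array.

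Of 51 other growth factor genes 6 rose (11.8%) and 9 fell (17.6%). Sfrp1, a secreted Wnt antagonist, read 70.7 and 63 in the controls and 395 and 396 at 3 weeks, a change of +2.31 ± 0.28 (SE, adjusted p = 3.1e-05). Pdgfc, a growth factor for fibroblasts, changed by +1.26 ± 0.27. Fgfr2, the receptor with which alveolar epithelium senses fibroblast growth factors, read 1033 and 949 in the controls and 419.9 and 505 at 3 weeks, a change of −1.08 ± 0.15 (SE, adjusted p = 1.8e-04). Vegfa, the endothelial growth factor that type 1 cells make, read 952 and 791 in the controls and 500.2 and 532 at 3 weeks, a change of −0.73 ± 0.12 (SE, adjusted p = 7.5e-04). Of the binding proteins of insulin-like growth factors, Igfbp3 fell by 1.68, Igfbp5 fell by 1.10 and Igfbp6 fell by 1.59. The 15 growth factor calls came to 10, 12, 9 and 11 and to 9. Pdgfc (+1.16, +1.13) missed the threshold without the male 3 week or male control array, and Igfbp3 (−1.04, −1.59) without the female 3 week or female control array.

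The factor p53 is activated by DNA breaks and switches on arrest and death genes. Of its targets 11 of 30 rose and 3 fell. Cdkn1a, the p21 inhibitor of the cell cycle, read 293 and 268 in the controls and 1652 and 1699.8 at 3 weeks, a change of +2.51 ± 0.20 (SE, adjusted p = 6.0e-07). Psrc1 read 20.2 and 37.2 in the controls and 289 and 285 at 3 weeks, a change of +2.79 ± 0.29 (SE, adjusted p = 7.9e-06). The dimmer Psrc1 probe set changed by +0.95. Phlda3, an inhibitor of Akt signalling, read 447 and 466 in the controls and 1318 and 1210.2 at 3 weeks, a change of +1.44 ± 0.13 (SE, adjusted p = 9.7e-07). Ccng1, cyclin G1, read 332 and 314 in the controls and 702 and 666 at 3 weeks, a change of +1.05 ± 0.21 (SE, adjusted p = 0.0027). All 4 were at least 2-fold higher in the mean on the probe sets used. Mdm2, the ligase that degrades p53 and itself a target, changed by +0.33 ± 0.19 (adjusted p = 0.30). The repair genes Ddb2 and Xpc fell by 0.73 and 0.61. The 14 p53 target calls came to 6, 10, 7 and 8 and to 4. Of 22 genes of bleomycin breakdown and break repair, H2ax alone passed, with a change of +0.71. That is 4.5% rising, against 7.09% of all genes. Blmh, the hydrolase that inactivates bleomycin, read 248 and 306 in the controls and 343 and 361 at 3 weeks, a change of +0.34 ± 0.18 (SE, adjusted p = 0.26), and did not pass. The 1 break repair call was kept in 2 of the 4 fits with an array left out and in 0 on the intensities as deposited. H2ax (+0.66, +0.61) missed the threshold without the female 3 week or male control array, and Ddb2 (−0.63, −0.82, −0.87, −0.58) and Xpc (−0.58, −0.64, −0.63, −0.58) in each of the 4 fits.

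Cell cycle genes, which mark dividing cells, shifted upward: 24 of 46 rose, none fell, and the median change was +0.73. Mki67, the proliferation marker, read 59.8 and 57.3 in the controls and 204 and 248 at 3 weeks, a change of +1.69 ± 0.27 (SE, adjusted p = 4.6e-04). Rrm2, which makes deoxynucleotides, read 77.2 and 84.9 in the controls and 252 and 269 at 3 weeks, a change of +1.51 ± 0.21 (SE, adjusted p = 1.3e-04). Birc5, survivin, read 32.2 and 39.5 in the controls and 136 and 166 at 3 weeks, a change of +1.68 ± 0.24 (SE, adjusted p = 1.5e-04). Mcm2, part of the replication helicase, read 112 and 105 in the controls and 244 and 455 at 3 weeks, a change of +1.49 ± 0.31 (SE, adjusted p = 0.0034). Cdk1 changed by +1.92 ± 0.64 and missed the threshold (adjusted p = 0.058). The 24 cell cycle calls came to 14, 10, 14 and 11 and to 8. Mcm2 (+1.13) missed the threshold without the female 3 week array.

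**Figure D3:**
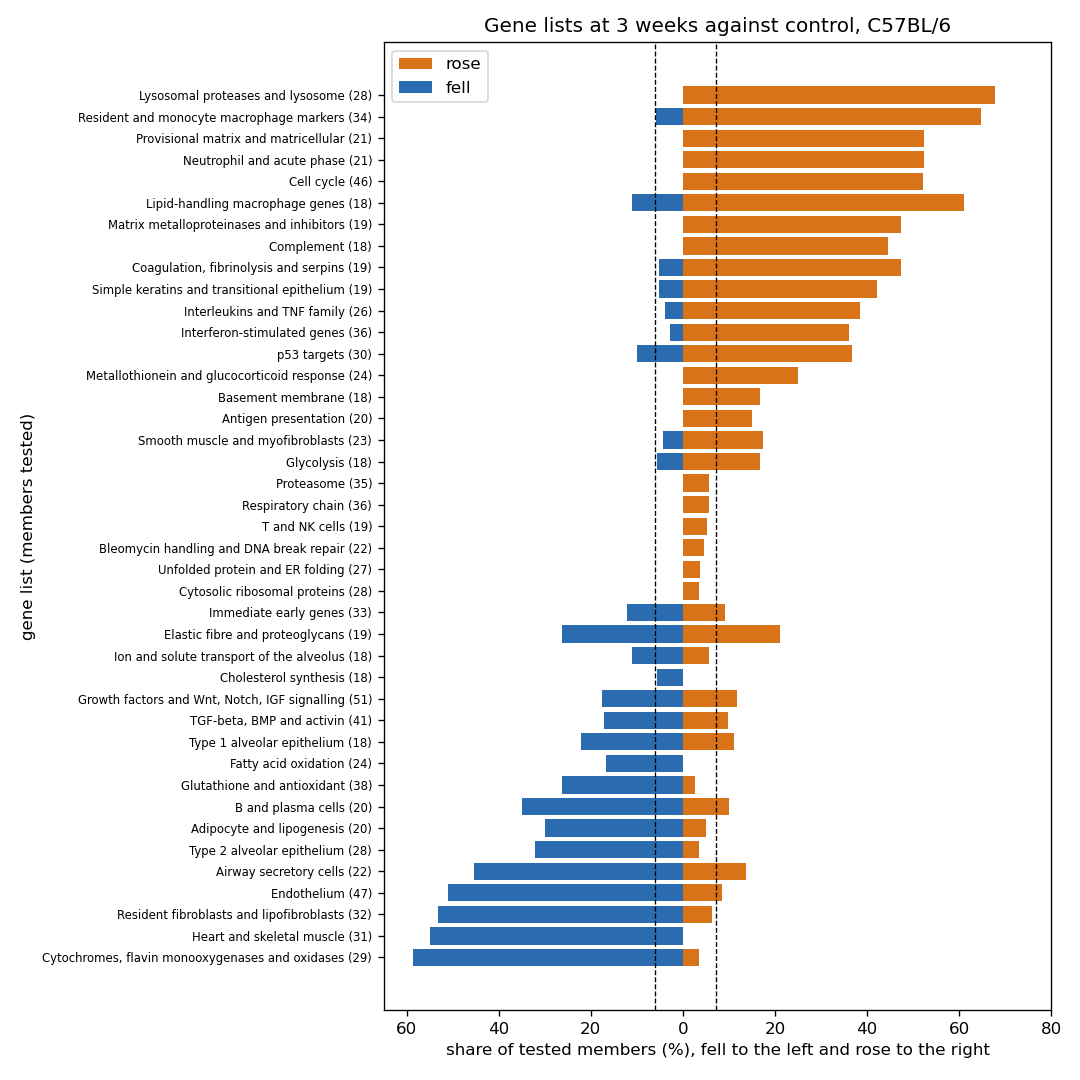
Share of each gene list's tested members that rose (orange, right) and fell (blue, left) for the 41 lists with 18 or more tested members; dashed lines mark the shares over all 9079 genes, 7.09% rising and 5.97% falling. Lysosome and macrophage lists reach the largest shares of rises, and muscle, cytochrome and fibroblast lists the largest shares of falls.

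Type 2 cells make surfactant and renew the alveolar lining. Of 28 type 2 cell genes 9 fell and 1 rose. Sftpa1 and Sftpb, surfactant proteins, read 5814 and 6274 in the controls and 3971 and 3971 at 3 weeks, and 5079 and 4922 in the controls and 3755 and 3688 at 3 weeks. Sftpc, the surfactant protein that marks type 2 cells, read 6738 and 7395 in the controls and 6827 and 6827 at 3 weeks, a change of −0.05 ± 0.08 (SE, adjusted p = 0.77). Its probe set ranked 7 and 2 in the controls and 6 and 6 at 3 weeks among all probe sets. For every probe set the normalised signal depends on the rank alone. As deposited Sftpc read 8227 and 8889 in the controls and 6500.3 and 7194 at 3 weeks. Etv5, the factor that keeps type 2 cells in their state, read 378 and 323 in the controls and 95.4 and 162 at 3 weeks, a change of −1.38 ± 0.25 (SE, adjusted p = 0.0012). Abca3, the lipid pump of surfactant bodies, read 835 and 1124 in the controls and 571 and 693 at 3 weeks, a change of −0.61 ± 0.20 (SE, adjusted p = 0.0496), and Slc34a2, the phosphate transporter, read 3844 and 3971 in the controls and 1888 and 2349.8 at 3 weeks. Ctsh, a lysosomal cathepsin that macrophages make too, was the member that rose. The 10 type 2 cell calls came to 3, 8, 6 and 6 and to 6. Among 18 type 1 cell genes 4 fell and 2 rose. Hopx read 6274 and 5664 in the controls and 4217 and 4371 at 3 weeks, and Ager, the receptor that marks type 1 cells, read 3048 and 3227 in the controls and 2650.4 and 2589 at 3 weeks, a change of −0.26 ± 0.11 (SE, adjusted p = 0.14), without passing. Pdpn, podoplanin, rose from 1118 and 1159 to 1708 and 1565. The 6 type 1 cell calls came to 3, 5, 4 and 4 and to 0. Etv5 (−0.93) and Slc34a2 (−0.71) missed the threshold without the male 3 week array, Sftpb (−0.43, −0.41) without the male 3 week or male control array, and Abca3 (−0.48, −0.74, −0.82, −0.40) and Pdpn (+0.44, +0.59, +0.49, +0.54) in each of the 4 fits.

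Injured alveolar epithelium passes through a keratin-rich transitional state. Of 19 genes 8 rose and 1 fell. Krt8, a simple keratin that marks cells between the type 2 and type 1 state, read 815 and 934 in the controls and 1510.5 and 1176 at 3 weeks, a change of +0.60 ± 0.17 (SE, adjusted p = 0.027). Sprr1a, a cornified envelope protein, read 79.8 and 113 in the controls and 266 and 210.4 at 3 weeks, a change of +1.18 ± 0.31 (SE, adjusted p = 0.016). Clu, the chaperone clusterin, read 994 and 1141 in the controls and 1749 and 2114 at 3 weeks, a change of +0.84 ± 0.24 (SE, adjusted p = 0.028). Cdh1, the junction protein E-cadherin, fell by 0.41, and the claudins Cldn3 and Cldn7 changed by −0.40 and −0.37 without passing. Lgals3, Ccn2 and Anxa1, also on this list, are made by macrophages or mesenchyme too. The 9 transitional epithelium calls came to 3, 7, 4 and 6 and to 2. Krt8 (+0.44, +0.46) and Sprr1a (+0.95, +1.01) missed the threshold without the male 3 week or male control array, and Clu (+0.97, +0.71, +0.76, +0.93) and Cdh1 (−0.36, −0.45, −0.41, −0.41) in each of the 4 fits.

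In the airways 10 of 22 secretory cell genes fell and 3 rose. Scgb1a1, the main club cell secretion, read 7760.4 and 7760.4 in the controls and 6935 and 6935 at 3 weeks, a change of −0.16 ± 0.07 (SE, adjusted p = 0.16), and did not pass. As with Sftpc, its normalised signal follows rank alone: its probe set ranked 1 in both controls and 5 in both arrays at 3 weeks, and as deposited it read 9059 and 9000.2 in the controls and 6749 and 7405 at 3 weeks. Cyp2f2, a club cell cytochrome, read 6935 and 6738 in the controls and 4118 and 4538 at 3 weeks, a change of −0.66 ± 0.14 (SE, adjusted p = 0.0039), and Scgb3a2 read 6113 and 5814 in the controls and 4568 and 4679 at 3 weeks, a change of −0.37 ± 0.09 (SE, adjusted p = 0.016). The 3 that rose were Clca3a1, Reg3g and Ltf; Reg3g, an antibacterial lectin, read 307 and 403 in the controls and 974 and 1049 at 3 weeks, a change of +1.48 ± 0.28 (SE, adjusted p = 0.0017). The 13 secretory cell calls came to 7, 11, 8 and 12 and to 9. Ciliated cell genes gave 3 falls and no rise in 11 tested. Tppp3 read 1639 and 1766 in the controls and 493 and 550.3 at 3 weeks, a change of −1.68 ± 0.13 (SE, adjusted p = 3.5e-07). Foxj1, the master factor of motile cilia, read 470.0 and 366 in the controls and 162 and 238 at 3 weeks, a change of −1.02 ± 0.26 (SE, adjusted p = 0.015). The 3 ciliated cell calls came to 1, 2, 1 and 2 and to 2. Cyp2f2 (−0.55) missed the threshold without the male 3 week array, Ltf (+0.57, +0.91) and Foxj1 (−0.71, −0.86) without the male 3 week or male control array, and Scgb3a2 (−0.34, −0.39, −0.33, −0.40) in each of the 4 fits.

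Endothelium lines the capillaries that make up much of the alveolar wall. Of 47 tested, 24 fell and 4 rose, with a median of −0.59. Cdh5, VE-cadherin, read 1246 and 1196 in the controls and 332 and 848 at 3 weeks, a change of −1.17 ± 0.27 (SE, adjusted p = 0.0072). Kdr, the main VEGF receptor, read 824 and 953 in the controls and 318 and 501 at 3 weeks, a change of −1.12 ± 0.26 (SE, adjusted p = 0.0082). In both genes the male pool at 3 weeks lay below the female one. Tmem100, a BMP-induced endothelial gene, read 1062 and 869 in the controls and 343 and 484 at 3 weeks, a change of −1.2 ± 0.19 (SE, adjusted p = 3.8e-04). Hpgd, which degrades prostaglandins, read 2002 and 1791 in the controls and 851 and 1044 at 3 weeks, a change of −0.99 ± 0.16 (SE, adjusted p = 4.0e-04). The dimmer Hpgd probe set changed by −0.34. Car4 read 772 and 695 in the controls and 262 and 382 at 3 weeks, a change of −1.17 ± 0.20 (SE, adjusted p = 8.4e-04). Ackr1, the chemokine-binding receptor of venules, read 83.5 and 49.1 in the controls and 267 and 222 at 3 weeks, a change of +1.69 ± 0.26 (SE, adjusted p = 3.7e-04). Selp, P-selectin, which captures leukocytes, read 71.5 and 54.5 in the controls and 193 and 156 at 3 weeks, a change of +1.27 ± 0.28 (SE, adjusted p = 0.0060). The 5 endothelial markers used to check cell types summed to 4889.6 and 4698 in the controls and 1995 and 2951 at 3 weeks. The 28 endothelial calls came to 8, 21, 13 and 14 and to 12. Cdh5 (−0.52, −1.07) missed the threshold without the male 3 week or male control array, and Kdr (−0.76, −1.0) and Selp (+0.96, +0.95) without the male 3 week or female control array.

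Resident fibroblasts hold the alveolar wall and store retinoids and lipid. Of 32 of their genes 17 fell and 2 rose, with a median of −0.61. Inmt, a methyltransferase bright in lung fibroblasts, read 5265 and 5031 in the controls and 1895 and 2276 at 3 weeks, a change of −1.3 ± 0.09 (SE, adjusted p = 2.6e-07). Lrat, which stores retinol as esters, read 70.2 and 207 in the controls and 16 and 29.2 at 3 weeks, a change of −1.86 ± 0.35 (SE, adjusted p = 0.0018). Slc7a10, an amino acid transporter, read 363 and 454 in the controls and 89.1 and 128 at 3 weeks, a change of −1.78 ± 0.18 (SE, adjusted p = 5.6e-06). Gsn, the actin-severing gelsolin, read 5936 and 6040.5 in the controls and 2903 and 4004 at 3 weeks, a change of −0.81 ± 0.11 (SE, adjusted p = 9.9e-05); of its 5 probe sets one changed by +0.03. Tcf21, the factor of lipofibroblasts, read 892 and 809 in the controls and 428 and 648 at 3 weeks and did not pass (adjusted p = 0.084). The 19 fibroblast calls came to 13, 14, 12 and 15 and to 12. Of 23 smooth muscle and myofibroblast genes 4 rose and 1 fell. S100a4, a calcium-binding protein of fibroblasts and macrophages, read 283 and 285 in the controls and 1329 and 984 at 3 weeks, a change of +1.95 ± 0.21 (SE, adjusted p = 1.1e-05). The contractile genes Cnn1, Myh11 and Mylk changed by −0.65, −0.61 and −0.45, all short of the threshold, although the mean of the Mylk probe sets passed at −0.57. Itga8, an integrin of alveolar fibroblasts, was the one that fell, reading 525 and 345 in the controls and 147 and 226 at 3 weeks. The 5 smooth muscle calls came to 4, 5, 4 and 5 and to 2. Lrat (−1.32) missed the threshold without the female control array, and Itga8 (−0.84, −0.83) without the male 3 week or male control array.

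The lung also oxidises foreign compounds, mostly in club cells and endothelium. Of 29 cytochrome, flavin monooxygenase and oxidase genes 17 fell and 1 rose, with a median of −0.74. Cyp1a1 read 218 and 315 in the controls and 59.7 and 55.2 at 3 weeks, a change of −1.92 ± 0.24 (SE, adjusted p = 5.0e-05). Fmo1 read 1878 and 1652 in the controls and 667 and 631 at 3 weeks, a change of −1.42 ± 0.12 (SE, adjusted p = 9.0e-07). Cyp4b1, bright in every array, read 2984 and 3151 in the controls and 1304 and 1311 at 3 weeks, a change of −1.22 ± 0.13 (SE, adjusted p = 9.1e-06). The aldehyde oxidases Aox1 and Aox3 fell by 1.28 and 1.72. Cyp7b1, which hydroxylates oxysterols such as the product of Ch25h, was the one that rose, reading 43.1 and 39.5 in the controls and 102 and 165 at 3 weeks, a change of +1.35 ± 0.25 (SE, adjusted p = 0.0014). The 18 oxidase calls came to 12, 14, 13 and 17 and to 15. Glutathione and antioxidant genes gave 10 falls and 1 rise in 38. The transferases Gstm1 and Gsta3 read 2091 and 1698 in the controls and 791 and 772 at 3 weeks, and 574 and 340.0 in the controls and 175 and 131 at 3 weeks. The 4 probe sets of Gstm1 ran from −1.25 to −0.32, and the 2 of Gsta3 from −1.45 to −0.57. Catalase, encoded by Cat, read 1308 and 983 in the controls and 414 and 582 at 3 weeks, a change of −1.18 ± 0.22 (SE, adjusted p = 0.0016). Hmox1, heme oxygenase, was the one that rose, reading 91.9 and 88.8 in the controls and 296 and 288 at 3 weeks, a change of +1.53 ± 0.25 (SE, adjusted p = 5.1e-04). The 11 glutathione calls came to 4, 7, 6 and 8 and to 5. Cat (−0.95) missed the threshold without the male 3 week array.

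Mt1 and Mt2, the metallothioneins that bind zinc and copper, read 631 and 434 in the controls and 2676 and 1286 at 3 weeks, and 358 and 286 in the controls and 2500.3 and 1261 at 3 weeks. Slc39a14, a zinc and iron importer, read 111 and 61 in the controls and 279.9 and 216 at 3 weeks, a change of +1.41 ± 0.44 (SE, adjusted p = 0.044), where its other probe set changed by +0.10. With Lcn2, Fkbp5 and Cebpd they made 6 rises and no fall in 24 metallothionein and glucocorticoid-responsive genes. The glucocorticoid targets Per1, Dusp1 and Klf9 changed by −0.54, −0.37 and −0.33 and did not pass, although the mean of the Klf9 probe sets passed at −0.73. The 6 metallothionein and glucocorticoid calls came to 2, 4, 5 and 3 and to 5. Of 14 iron genes 5 rose and 2 fell. The iron exporter Slc40a1 changed by +0.63, and Tfrc, the transferrin receptor, by −0.59, or −0.37 without passing as the mean of its probe sets. The 7 iron calls came to 4, 5, 3 and 6 and to 3. Fkbp5 (+1.0) missed the threshold without the male 3 week array, Tfrc (−0.52, −0.41) without the male 3 week or male control array, Mt1 (+1.28, +1.57) without the male 3 week or female control array, Slc39a14 (+1.13, +1.68, +0.93) without the male 3 week, female 3 week or female control array, Slc40a1 (+0.48, +0.65, +0.60) without the female 3 week, male control or female control array, and Cebpd (+0.76, +0.55, +0.49, +0.81) in each of the 4 fits.

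Genes of cardiac and skeletal muscle gave 17 falls and no rise in 31, and their median of −0.95 was the lowest of the lists. Mb, myoglobin, read 480.0 and 544 in the controls and 40.6 and 102 at 3 weeks, a change of −2.69 ± 0.46 (SE, adjusted p = 8.4e-04). Myl7, the atrial light chain, read 1054 and 926 in the controls and 286 and 378 at 3 weeks, a change of −1.54 ± 0.20 (SE, adjusted p = 7.8e-05). Tnni3, cardiac troponin I, read 373 and 371 in the controls and 115 and 135 at 3 weeks, a change of −1.47 ± 0.22 (SE, adjusted p = 3.0e-04). Mouse pulmonary veins carry heart muscle, so a lung sample holds these transcripts. The 17 muscle calls came to 9, 13, 11 and 11 and to 17. Among fat genes, Adipoq, adiponectin, read 309 and 516 in the controls and 80.4 and 135 at 3 weeks, a change of −1.78 ± 0.41 (SE, adjusted p = 0.0078), and Car3 read 1032 and 1499.9 in the controls and 231 and 320.5 at 3 weeks, a change of −2.13 ± 0.30 (SE, adjusted p = 1.4e-04). Of 20 adipocyte and lipogenic genes 6 fell and 1 rose. Thrsp, a lipogenic gene, read 176 and 254 in the controls and 27.8 and 54 at 3 weeks, a change of −2.04 ± 0.32 (SE, adjusted p = 4.1e-04). The 7 fat calls came to 2, 5, 5 and 3 and to 4. Adipoq (−1.54, −1.5) missed the threshold without the male 3 week or female control array.

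B cell genes gave 7 falls and 2 rises in 20. Ms4a1, the CD20 antigen, read 263 and 268 in the controls and 58.4 and 109 at 3 weeks, a change of −1.55 ± 0.35 (SE, adjusted p = 0.0066). Cd79a, a chain of the antigen receptor, read 244 and 209 in the controls and 66.4 and 91.8 at 3 weeks, a change of −1.36 ± 0.22 (SE, adjusted p = 4.6e-04). The 2 rises were Ly86 and Cd52, which myeloid cells make too. The 9 B cell calls came to 3, 7, 5 and 2 and to 5. Of 19 T and NK cell genes 1 rose (5.3%, against 7.09% of all genes), the costimulator Icos, and none fell. Cd3d read 56.5 and 80.7 in the controls and 105 and 109 at 3 weeks, a change of +0.55 ± 0.37 (SE, adjusted p = 0.37). The 1 T cell call was kept in 0 of the 4 fits with an array left out and in 0 on the intensities as deposited. Red cell genes fell in 4 of 10. Alas2, which starts heme synthesis in red cell precursors, read 1708 and 1969 in the controls and 667 and 893 at 3 weeks, a change of −1.23 ± 0.35 (SE, adjusted p = 0.027). Hbb-b2 read 140.4 and 177 in the controls and 50.7 and 40.3 at 3 weeks; it shares sequence with the other adult beta globin gene, so its signal may hold both. The 4 red cell calls came to 1, 3, 1 and 3 and to 3. Antigen presentation genes gave 3 rises and no fall in 20, among them Ctss and Ifi30, and the 3 antigen presentation calls came to 2, 2, 2 and 2 and to 2. Ms4a1 (−1.09, −1.49) missed the threshold without the male 3 week or female control array, Alas2 (−0.98, −1.36, −1.1) without the male 3 week, male control or female control array, Cd52 (+0.63, +0.76, +0.98) without the female 3 week, male control or female control array, and Icos (+0.83, +0.95, +1.04, +0.74) in each of the 4 fits.

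Housekeeping groups mostly stayed short of the threshold, with median changes of +0.05 for 28 ribosomal protein genes, +0.11 for 36 respiratory chain genes and +0.30 for 35 proteasome genes. These small medians moved with the scaling, to −0.06, +0.0042 and +0.22 on the intensities as deposited and to +0.19, +0.25 and +0.47 with every array scaled to 1 median. In those 3 groups 1, 2 and 2 genes rose (3.6%, 5.6% and 5.7%, against 7.09% of all genes) and none fell. Rps2 read 3282 and 3306 in the controls and 4033 and 4101 at 3 weeks and passed with a small rise, a change of +0.30 ± 0.09 (SE, adjusted p = 0.027). Of 27 unfolded protein response genes Dnajb11 alone passed, with a change of +0.82. Of 18 glycolytic genes 3 rose, Pgam1, Pkm and Ldha, and Ldhb fell. Of 18 cholesterol synthesis genes 1 fell, Idi1, which did not pass as the mean of its probe sets, and of 24 fatty acid oxidation genes 4 fell and none rose. Acaa1b, a peroxisomal thiolase, led these with 69.2 and 64.2 in the controls and 4.8 and 21.7 at 3 weeks. Actb, beta actin, read 6601 and 6601 in the controls and 6738 and 5743 at 3 weeks and changed by −0.09 ± 0.13 (adjusted p = 0.75). Smaller lists gave 3 rises and 1 fall in 17 integrins, 1 rise and 2 falls in 18 ion and solute transporters, and 2 falls and no rise in 7 mesothelial genes. Bex2 and Kit were the 2 falls among 6 neuroendocrine, nerve and mast cell genes. The 2 respiratory chain calls came to 1, 1, 1 and 2 and to 0. The 2 proteasome calls came to 0, 1, 1 and 0 and to 0. The 4 glycolysis calls came to 1, 4, 3 and 4 and to 0. The 4 fatty acid oxidation calls came to 0, 3, 3 and 2 and to 2. The 4 integrin calls came to 1, 3, 2 and 2 and to 1. The 3 ion and solute transport calls came to 1, 2, 2 and 3 and to 3. The 2 mesothelial calls came to 2, 2, 2 and 2 and to 2. The 2 neuroendocrine and mast cell calls came to 1, 2, 1 and 1 and to 1. The single calls of ribosomal proteins, unfolded protein genes and cholesterol synthesis were kept in 0, 1 and 1 of the 4 fits with an array left out and in none on the intensities as deposited. Pkm (+0.59), Ldhb (−0.51) and Acaa1b (−1.09) missed the threshold without the male 3 week array, Ldha (+0.58, +0.61) without the male 3 week or male control array, Dnajb11 (+0.85, +0.78, +0.60) without the male 3 week, female 3 week or male control array, Idi1 (−0.55, −0.68, −0.46) without the male 3 week, female 3 week or female control array, Kit (−0.40, −0.56, −0.71) without the male 3 week, male control or female control array, and Rps2 (+0.29, +0.32, +0.33, +0.28) in each of the 4 fits.

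Of 15 clock genes, which set the daily rhythm of the cell, none passed the limma test and 7 had an unadjusted p under 0.05; with each gene's probe sets averaged 1 passed, and the 2 controls differed in them. Their median change was −0.93 between the male pools and −0.05 between the female pools. Nr1d2, a repressor of the clock, read 1364 and 616 in the controls and 548 and 601 at 3 weeks. Tef, an output factor of the clock, read 1762 and 828 in the controls and 819 and 770.0 at 3 weeks, and Per3 read 277 and 124 in the controls and 106 and 94.6 at 3 weeks. In all 3 genes the male control alone stood high, and the female control was near both treated pools. Nr4a1, an immediate early receptor gene, read 1038 and 342 in the controls and 223 and 336 at 3 weeks, a change of −1.08 ± 0.32 (SE, adjusted p = 0.033); it passed, although its change was −2.14 between male pools and −0.03 between female pools. With the female control left out instead, the change was −1.89. Of 33 immediate early genes 3 rose (9.1%) and 4 fell (12.1%), against 7.09% and 5.97% of all genes. Myc, the growth regulator, read 26 and 30.5 in the controls and 115 and 106 at 3 weeks, a change of +1.51 ± 0.25 (SE, adjusted p = 5.4e-04). The 7 immediate early calls came to 2, 6, 2 and 5 and to 3. Nr4a1 (−0.72, −0.27) missed the threshold without the male 3 week or male control array.

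The male and the female pools gave the same direction for all 1186 genes that passed, which the choice of these genes makes likely, and for 71.4% of all genes. In all 1186 the 2 groups did not overlap, while over all 9079 genes 31.1% lay wholly higher and 28.8% wholly lower at 3 weeks. Across genes, which are not independent, the male and female changes correlated at 0.693. The median size of the change in the genes that passed was 0.89 between male pools and 0.73 between female pools. The male change was the larger in 779 of 1186 (65.7%), against 56.8% of all genes. With 1 pool of each sex there is no test of this difference. After Nr4a1, the widest gap among genes that passed was in Tnfrsf9, a receptor of activated T cells, which read 11.8 and 70.3 in the controls and 219 and 184 at 3 weeks. Next came S100a14, with 25.3 and 75.5 in the controls and 254 and 157 at 3 weeks, and Tnfrsf12a, the TWEAK receptor, with 148 and 258 in the controls and 743 and 392 at 3 weeks. All 3 rose more in the male pool. In the other direction Hsd11b2, which inactivates glucocorticoids, read 34.9 and 2.2 in the controls and 86.5 and 84.9 at 3 weeks and rose more in the female pool. Igfbp3 fell more in the female pool, reading 169.6 and 226 in the controls and 75.6 and 31.9 at 3 weeks. Slc4a1, the red cell anion exchanger, fell more in the male pool, reading 235 and 72.4 in the controls and 49 and 54.2 at 3 weeks. Tnfrsf9 changed by +1.23 without the male control and passed. Hsd11b2 (+1.0) missed the threshold without the female control array, Nr4a1 (−0.72, −0.27), S100a14 (+1.46, +1.18) and Tnfrsf12a (+0.86, +1.01) without the male 3 week or male control array, Igfbp3 (−1.04, −1.59) without the female 3 week or female control array, and Slc4a1 (−1.02, −1.26, −0.36) without the male 3 week, female 3 week or male control array.

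**Figure D4:**
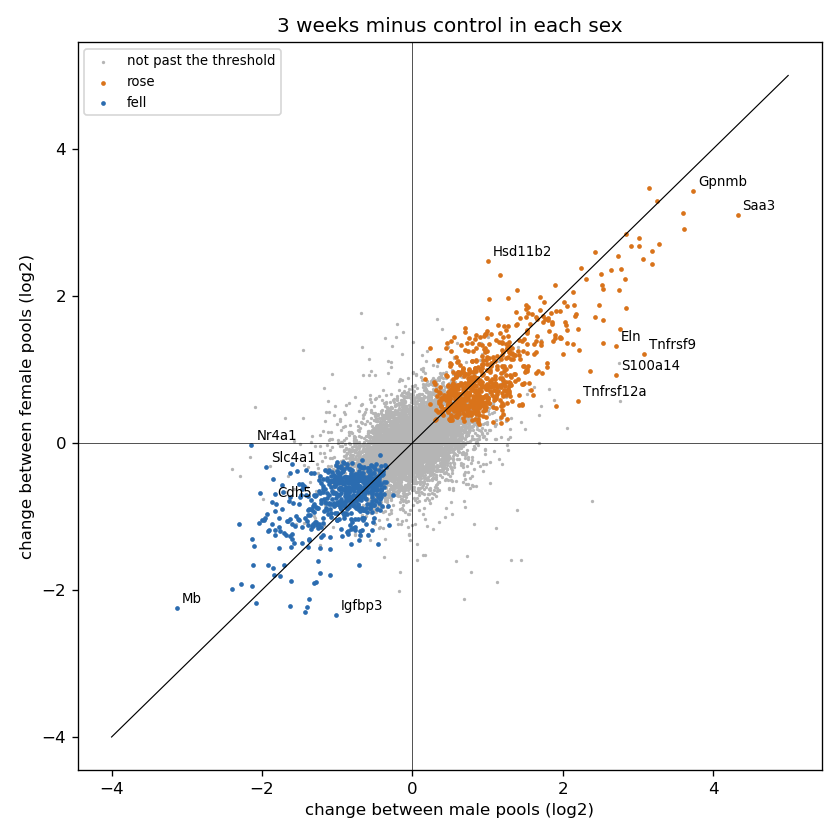
Change from control to 3 weeks between the male pools (x axis) and the female pools (y axis), log2 scale; grey points are all 9079 genes, orange those that rose and blue those that fell. The genes that passed lie in the upper right and lower left fields; Tnfrsf9 and Tnfrsf12a lie below the diagonal and Hsd11b2 above it.

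Against the same time point in A/J and C3H/HeJ, the C57BL/6 change was tested as a difference of differences. The change minus the mean of the changes of both strains passed for 232 genes (2.56%), 128 (1.41%) of them more positive and 104 (1.15%) more negative in C57BL/6. At an unadjusted p under 0.05 there were 1624. The split moved with the scaling, to 199 more positive and 30 more negative with every array scaled to 1 median, and to 32 and 2 on the intensities as deposited. Those scalings also moved the median difference of all genes from +0.03 to +0.16 and +0.17. Of the 232, 118 rose and 94 fell in C57BL/6 and 20 did not pass there. Against A/J alone 142 genes (1.56%) passed and against C3H/HeJ alone 27 (0.297%), with 1361 and 1336 at an unadjusted p under 0.05. The A/J pools had in part lower doses, so the fit was repeated with A/J only at the doses of the C57BL/6 pools, a setting chosen after seeing the data. There 85 genes passed, of which 83 were among the 232, and 33 against A/J alone. The count of 232 came to 17, 113, 47 and 36 without the male 3 week, female 3 week, male control and female control array, and to 34 on the intensities as deposited. With the Gapdh 3′ to 5′ ratio of each array as a covariate they came to 34, and the 142 and 27 to 40 and 11. Of the 1186 genes that passed in C57BL/6, 948 changed in the same direction in A/J and 961 in C3H/HeJ. With the same direction, 72 of the 1186 also passed in A/J and 167 in C3H/HeJ. The share of all genes with the same direction was not computed. The median change of the 1186 in the C57BL/6 direction was 0.80 in C57BL/6, 0.19 in A/J and 0.27 in C3H/HeJ. Genes chosen on C57BL/6 are larger there partly by that choice.

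Among single genes, Armcx4 changed by +1.83 in C57BL/6, −0.35 in A/J and −0.10 in C3H/HeJ, a difference of +2.06 ± 0.19 (SE, adjusted p = 4.4e-05). It read 44.2 and 51.4 in the controls and 187 and 239 at 3 weeks. Gpnmb changed by +1.9 in A/J and +1.64 in C3H/HeJ, a difference of +1.81 ± 0.22 (adjusted p = 5.6e-04). Timp1 changed by +1.35 and +1.67, a difference of +1.85 ± 0.31 (adjusted p = 0.0070). The C1q chains C1qb and C1qc differed by +1.88 and +1.78. Tnc changed by +0.63 in A/J and +2.04 in C3H/HeJ, a difference of +1.92 ± 0.42 (adjusted p = 0.029). Fst, Mt2 and Msr1 differed by +2.02, +1.76 and +1.77. In all of these the rise was larger in C57BL/6 than in the mean of both strains. Against C3H/HeJ alone, C1qb and Fst did not pass the limma test (adjusted p = 0.11 and 0.077). Msr1, with a difference of +1.40 ± 0.44 there, did not pass it either. Against A/J alone C1qb, Fst and Msr1 passed it (adjusted p = 0.011, 0.017 and 0.015). For Timp1, Tnc and Mt2 only the difference against the mean of both strains is given. Armcx4, Gpnmb and C1qc passed against each strain alone. Mmp12 and Trem2, in contrast, differed by +0.47 ± 0.57 and +0.92 ± 0.34 and did not pass (adjusted p = 0.73 and 0.16). Saa3 differed by +1.16 ± 0.38 (adjusted p = 0.11). Col1a1 changed by +0.53 in A/J and +1.25 in C3H/HeJ, a difference of +0.39 ± 0.28 that did not pass (adjusted p = 0.51). Timp1 (+1.48, +1.75) missed the threshold without the male 3 week or female control array, and C1qb (+1.68, +1.77, +1.99), Tnc (+1.58, +1.87, +1.97), Fst (+1.56, +1.92, +2.12), Mt2 (+1.24, +1.91, +1.61) and Msr1 (+1.42, +1.7, +1.84) without the male 3 week, male control or female control array.

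Falls were also compared between strains. Pcolce2 changed by −0.43 in A/J and −0.37 in C3H/HeJ, a difference of −1.78 ± 0.21 (adjusted p = 5.2e-04). Inmt changed by −0.10 and −0.31, a difference of −1.09 ± 0.11 (adjusted p = 1.2e-04). Irx3, a homeobox factor, changed by +0.16 and +0.49 where it fell by 1.89 in C57BL/6, reading 694 and 693 in the controls and 148 and 209 at 3 weeks. Cdh5 changed by +0.04 and +0.22, a difference of −1.3 ± 0.32 (adjusted p = 0.042). The red cell gene Alas2 changed by +0.33 and +0.81, opposite in sign to C57BL/6. With A/J at matched doses the differences of Irx3, Alas2, Cdh5 and Tnc were −2.31, −1.77, −1.3 and +1.78 and missed the threshold, and the other 12 differences that passed still did. Cdh5 also missed it as the mean of its probe sets, at −1.58. Cyp1a1 and Slc7a10 differed by −1.63 and −1.56. In the limma test against A/J alone, Irx3, Alas2 and Cdh5 did not pass (adjusted p = 0.083, 0.10 and 0.098). Against C3H/HeJ alone these genes did not pass either (adjusted p = 0.080, 0.070 and 0.10). Cyp1a1 passed against A/J alone (adjusted p = 0.0085) and not against C3H/HeJ alone (adjusted p = 0.070). Inmt passed against each strain alone. Mb did not pass, with a difference of −1.1 ± 0.56. Cyp1a1 (−1.66, −1.34) missed the threshold without the male 3 week or female control array, Cdh5 (−0.64, −1.2, −1.41) and Tnc (+1.58, +1.87, +1.97) without the male 3 week, male control or female control array, and Irx3 (−1.94, −2.48, −2.22, −2.2) and Alas2 (−1.55, −2.05, −1.93, −1.67) in each of the 4 fits. By list, the median change in C57BL/6, A/J and C3H/HeJ was −0.59, −0.07 and −0.14 for endothelium, +0.97, +0.39 and +0.49 for macrophage markers, and +0.73, +0.19 and +0.52 for the cell cycle. For the collagens of types I, III, V, VI and their relatives it was +0.63, +0.29 and +0.47. The difference passed in 7 of 47 endothelial, 9 of 34 macrophage, 1 of 46 cell cycle and 1 of 14 of these collagen genes. Over all genes 2.56% passed. In C57BL/6 the change was more negative for the 7 endothelial genes and more positive for the cell cycle and collagen gene. Of the 9 macrophage genes it was more positive in 7 and more negative in 2.

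**Figure D5:**
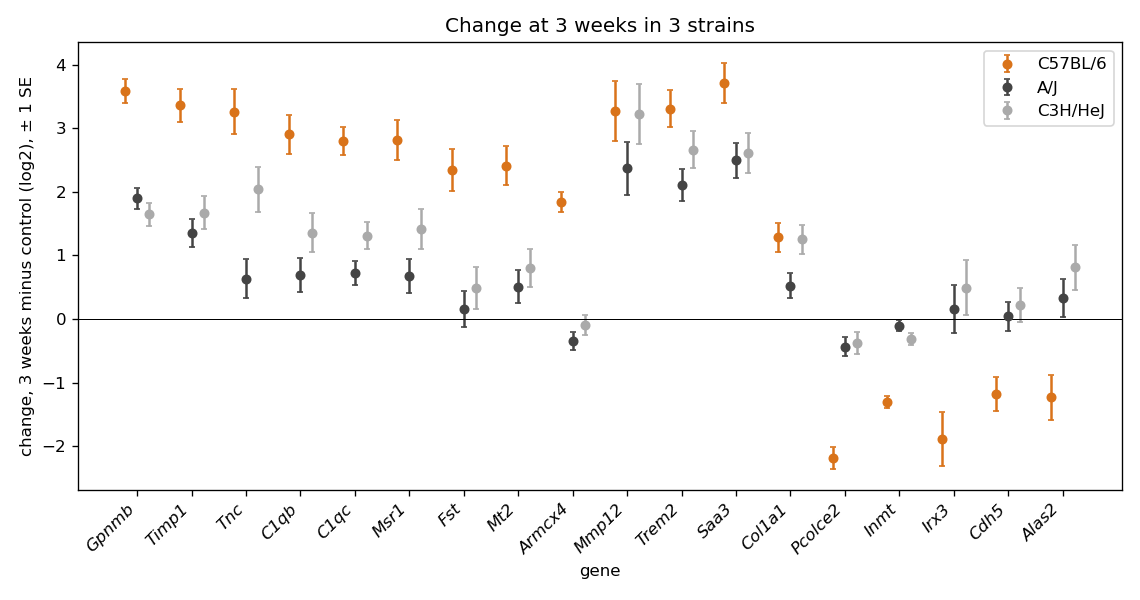
Change from control to 3 weeks (log2 scale, points) in C57BL/6 (orange), A/J (dark grey) and C3H/HeJ (light grey) for 18 genes, with bars of 1 standard error from the limma fit. Gpnmb, Timp1, C1qc, Armcx4, Pcolce2 and Inmt stand apart in C57BL/6, while Mmp12, Trem2 and Col1a1 overlap or lie near the other strains.

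The moribund and the 6 week C57BL/6 arrays share the same 2 control arrays, so their changes are given only beside those at 3 weeks. The 6 week group was 1 array, a female pool at 125 mg/kg, so its changes have no replicate. The moribund group held a male pool at 100 mg/kg and a female pool at 125 mg/kg. Gpnmb changed by +3.58 at 3 weeks, +3.65 in moribund mice and +3.6 at 6 weeks. For Timp1 the values were +3.36, +3.79 and +2.25. Col1a1 changed by +1.28, +1.61 and +1.3, and Cdkn1a by +2.51, +2.53 and +2.28. Mki67, the proliferation marker, changed by +1.69, +0.46 and +0.85. Among falls, Cdh5 changed by −1.17, −0.79 and −0.47, and Inmt by −1.3, −1.42 and −1.07.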

How the data were processed

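RNA of pooled right lungs was measured on 21 mouse oligonucleotide arrays. The deposited values are linear intensities, 1 per probe set; the labels name neither the software nor the scaling behind them, and the number of arrays limits the precision. The 64 control probe sets were left out, the rest quantile normalised and taken as log2(intensity + 16), a scale that understates changes of dim genes. The dimmest 33.3% of probe sets were dropped, and the brightest probe set with 1 gene symbol stood for a gene, leaving 9079 genes. limma 3.58.1 in R 4.3.3 fitted group and sex over all 21 arrays (10 residual degrees of freedom, trended prior), with Benjamini-Hochberg adjustment over all genes and a threshold of 0.05. Tested on simulated data of the 9079 genes, with 100 genes changed at each fold, this comparison recovered 79% of 2-fold and 100% of 4-fold changes. The simulated noise was independent for each gene and array at the fitted spread. It held no effects shared by the genes of an array, so these shares do not cover such effects in the real arrays. The simulation also changed a smaller share of genes than the 13.1% that passed here, and the adjusted p depends on that share. Gene names came from the platform's annotation and were checked against RefSeq symbols (20351 of 20380 matched, 0 changed). Another 1555 probe sets had no symbol and 691 several, and none of these was named.

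The 53 gene lists and the members were chosen with earlier results of these data known. Of the listed genes 1130 were tested, 146 were too dim and 169 had no probe set of their own. The naming rule took the 15 largest rises and falls, up to 8 members of each list with the smallest p, the 10 largest strain and 5 largest sex gaps each way, the 10 brightest genes that passed and a fixed set of 16. Of the named genes 69 had several probe sets, and in 2, Gsn and Il4ra, one changed in the opposite direction. In others the probe sets changed in the same direction by different amounts, which are given beside some of them. Other list members named beside them, such as Adgre1, Kdr and Il1b, were chosen after their values were seen. Alternatives changed the scaling, the offset, the filter, the covariates, the arrays in the fit, the probe set and the threshold. Nothing says how the pools relate to one another, so p-values measure the spread between pools.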

Additional observations from a re-analysis of the deposited data

Results flagged for a closer look

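Of the 21 genes in the strain comparison, 16 differed in response at 3 weeks between C57BL/6 and the mean of A/J and C3H/HeJ. This was the limma test of the difference itself, which 75 of all 227 genes named in the text passed. Over all 9079 genes 232 (2.56%) passed it. The naming rule took the largest differences among genes that passed this test. The counts of 16 and 75 follow in part from that choice. More positive in C57BL/6 than in the mean of A/J and C3H/HeJ were Armcx4 (a difference of +2.06), Fst (+2.02), Tnc (+1.92), C1qb (+1.88), Timp1 (+1.85), Gpnmb (+1.81), C1qc (+1.78), Msr1 (+1.77) and Mt2 (+1.76). More negative were Irx3 (−2.21), Alas2 (−1.8), Pcolce2 (−1.78), Cyp1a1 (−1.63), Slc7a10 (−1.56), Cdh5 (−1.3) and Inmt (−1.09). Of these 16, 9 passed with the Gapdh 3′ to 5′ ratio as a covariate, namely Alas2, Armcx4, C1qc, Cyp1a1, Gpnmb, Inmt, Pcolce2, Slc7a10 and Timp1. On the intensities as deposited 10 passed: Armcx4, C1qb, C1qc, Cyp1a1, Fst, Gpnmb, Msr1, Mt2, Timp1 and Tnc.

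In 3 named genes, none of which passed the test, the male and the female pools changed in opposite directions. The male change minus the female change was +0.23 in Actb, −0.79 in Ccl4 and +0.13 in Sftpc. With 1 pool of each sex these differences were not tested.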

How the results depend on the processing

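The 1186 genes that passed at 3 weeks came to 387 on the intensities as deposited, 454 with the C57BL/6 arrays alone and 1845 with array weights; the other alternatives kept the count within 1.5 times. Averaging a gene's probe sets turned the direction of 2 of the 1186, neither of them named; the other alternatives turned none. Leaving out 1 of the 4 arrays gave 427 to 831. The 232 genes of the strain difference came to 34, 606 and 34 on the intensities as deposited, with array weights and with the Gapdh 3′ to 5′ ratio as a covariate, to 508 at an adjusted p under 0.10 and to 356 without the moribund and 6 week arrays and 85 with A/J at matched doses, both settings chosen after seeing the data. Of the 232, 1 turned in sign on the intensities as deposited and 1 with every array scaled to 1 median. For A/J alone, 142 became 25, 462, 40, 314, 255 and 33, and for C3H/HeJ alone 27 became 2, 132, 11, 167 and 123, or 59 with every array scaled to 1 median. With 1 array left out the 3 strain counts ran over 17 to 113, 18 to 105 and 5 to 34. The cause of these shifts was not tested. The share of genes with the larger change in the male pool was 65.7%, and 60.6% on the intensities as deposited, also chosen after seeing the data. Of 191 named genes that passed, 116 passed with any 1 array left out. With 1 array left out, 4 named genes that had not passed turned in sign. Actb ran from −0.209 to +0.038, highest without the female 3 week array. Ccl4 ran from −0.078 to +0.582 and Sftpc from −0.115 to +0.018, both turning without the female control. The strain difference of Mmp12 ran from −0.054 to +1.0, below 0 without the female 3 week array and, at −0.034, without the male control. Dim genes have the least precise changes. After quantile normalisation every signal follows its rank on the array, including those near the top of the range. No paired analysis was possible because the labels number no replicates; pools match by sex, which the fit holds as a term, and without that term 1224 genes passed.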
